A study of Mus musculus with 4 samples.

Results

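The early growth response transcription factors Egr1, Egr2, Egr3 and Egr4 and the NGFI-A binding corepressors Nab1 and Nab2 were followed through the cell classes of the mouse hippocampus. These are 6 of the 32285 genes in the expression matrices, taken by symbol, and each of them had counts in all 4 libraries. Single-nucleus RNA sequencing had been carried out on the hippocampi of 2 wild-type (WT) mice and 2 Cyfip2+/R87C knock-in (KI) littermates at postnatal week 28, with 1 library per mouse made from the hippocampi of both hemispheres. KI mice carry 1 copy of Cyfip2 in which arginine is replaced by cysteine, on a C57BL/6N background, and are a model of West syndrome, an epilepsy of infancy. All 4 mice were untreated, their tissue was frozen before nuclei were isolated, and all 4 libraries carry the same batch label. The genotype label of KI replicate 2 reads KI while its treatment label reads Cyfip2+/R88C. It was kept in the KI group, and the counts of calls without it are given. The sex of each mouse and the time since its last seizure are not given in the sources used here.

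EGR proteins are zinc-finger transcription factors that bind GC-rich elements and are encoded by immediate early genes. In neurons, synaptic activity raises their transcription within minutes through the ERK pathway, serum response factor bound with Elk cofactors at CArG boxes, and CREB bound at cyclic AMP response elements. Egr1 and Egr3 are the members best known for plasticity and memory in the hippocampus, and Egr2 is best known for hindbrain patterning and for myelination by Schwann cells. NAB1 and NAB2 lack a DNA-binding domain. They bind EGR1, EGR2 and EGR3 and recruit the NuRD chromatin complex through CHD4, and Nab2 is itself induced by EGR factors, which closes a negative feedback loop.

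The start regions of 3 members are shown because they carry the elements through which activity and EGR proteins are known to act, and the levels of the same members are described below. Each run is 300 bases long, from 250 bases before to 50 bases after a RefSeq start site (GRCm38.p6 table), written 5′ to 3′ on the strand of the gene. Capitals mark a CArG box, a core cyclic AMP response element (TGACG, or CGTCA on the other strand) or an EGR site (GCGTGGGCG or GCGGGGGCG, or CGCCCACGC on the other strand).
Egr2, chr10:67537619-67537918, plus strand: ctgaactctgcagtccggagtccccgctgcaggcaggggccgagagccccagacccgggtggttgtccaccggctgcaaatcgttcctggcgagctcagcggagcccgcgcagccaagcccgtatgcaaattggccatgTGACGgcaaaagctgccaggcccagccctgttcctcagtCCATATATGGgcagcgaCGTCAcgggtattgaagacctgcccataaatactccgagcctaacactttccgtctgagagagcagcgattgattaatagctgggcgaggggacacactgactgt
Egr4, chr6:85513540-85513839, minus strand: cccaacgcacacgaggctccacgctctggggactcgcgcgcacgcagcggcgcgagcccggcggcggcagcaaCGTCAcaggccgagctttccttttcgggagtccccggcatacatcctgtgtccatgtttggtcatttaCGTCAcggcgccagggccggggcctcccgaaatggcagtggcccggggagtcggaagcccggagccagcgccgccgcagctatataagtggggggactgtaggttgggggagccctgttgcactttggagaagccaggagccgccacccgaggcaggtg
Nab1, chr1:52500399-52500698, minus strand: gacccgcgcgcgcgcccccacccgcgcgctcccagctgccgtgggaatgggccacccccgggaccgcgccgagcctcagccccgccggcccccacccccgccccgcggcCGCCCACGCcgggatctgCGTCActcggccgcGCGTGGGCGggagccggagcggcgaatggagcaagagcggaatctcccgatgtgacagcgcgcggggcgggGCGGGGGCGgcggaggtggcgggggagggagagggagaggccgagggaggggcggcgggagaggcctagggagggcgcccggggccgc
The Egr2 window held a CArG box at −72 to −63 relative to the start, and a TGACG core on either side of it. Across 32851 promoter windows of the same length, with both strands searched, 1.63% held a CArG box and 20.8% held the TGACG core. The Egr4 window held 2 copies of the core and no CArG box. The Nab1 window held 2 copies of GCGTGGGCG, in opposite orientation, and 1 of GCGGGGGCG, which were found in 0.612% and 2.91% of all windows, and 1 TGACG core between the first 2 of them. The window of Nab2 at chr10:127666654-127666953 (minus strand) held none of these letters, and none of the 4 genes' windows held the full element TGACGTCA, which contains the core and was found in 1.79% of windows. Egr2 has 5 start sites in the table, and the one shown lies within 50 bases of the starts of 3 GENCODE transcripts. No GENCODE transcript starts within 50 bases of the Nab1 start site shown. Egr1 and Egr3 had no window here and were not searched, so nothing is known from this search about their elements. A match describes the letters in a window and was not tested as a site of binding. Per GENCODE M21, Egr2 lies at chr10:67535475-67542188 (plus strand), Egr3 at chr14:70077203-70082614 (plus strand), Egr4 at chr6:85511121-85513589 (minus strand), Nab1 at chr1:52457294-52500679 (minus strand) and Nab2 at chr10:127660918-127668568 (minus strand).

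**Figure D1:**
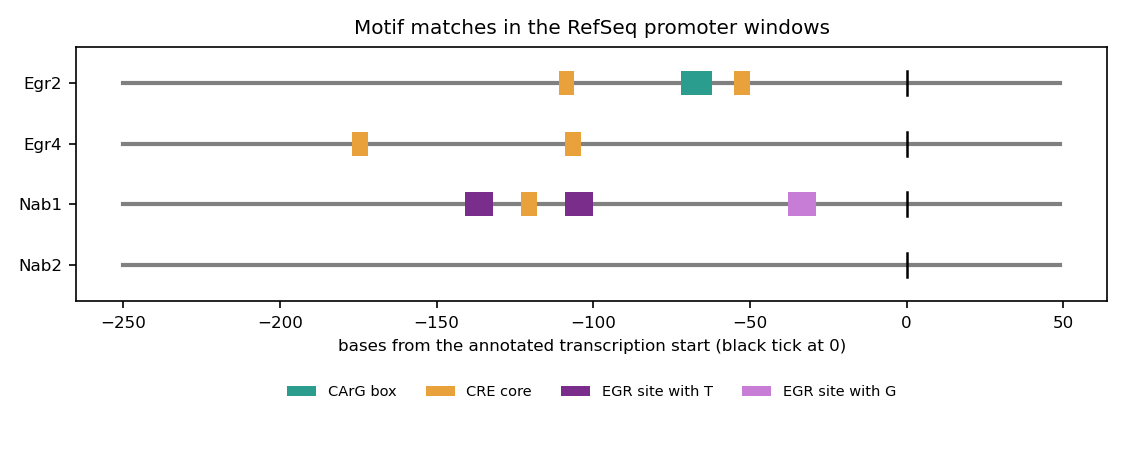
Positions of the searched motifs in the promoter windows of Egr2, Egr4, Nab1 and Nab2, as distance in bases from the start site (x axis), with 1 line per gene, 1 colour per kind of motif (CRE core for TGACG, EGR site with T or G for GCGTGGGCG or GCGGGGGCG) and a black tick at the start. Egr2 alone of the 4 windows holds a CArG box, Nab1 alone holds EGR sites, and Nab2 holds none. Egr1 and Egr3 were not searched.

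The libraries held between 12665 and 16055 barcodes and between 73009975 and 80913580 UMIs (unique molecular identifiers, each standing for 1 captured RNA molecule). After removal of nuclei with under 500 genes and of likely doublets, 52016 of 55640 barcodes remained, with a median of 3867 to 4692 UMIs per library. Nuclei were assigned to classes by standard marker genes, which placed 39411 nuclei (75.8%) in 15 classes, and 10 classes with at least 20 nuclei in every library were compared. Neurons of the DG, CA1 and CA3 fields and the main glia were all found, with every marker of its own at least 2 times higher in each class than elsewhere except 1 of 6 in CA1 neurons. The same markers assigned the nuclei, so this is no independent check of the classes. Cyfip2 itself was measured at 182, 180, 172 and 171 CPM (counts scaled to the UMIs of the library) in WT replicates 1 and 2 and KI replicates 1 and 2 (the order of all 4 values hereafter), and did not pass the test (log2 fold change −0.03, adjusted p = 0.859). The allele changes a codon, so this level is no check of the labels. Several whole-library features differed with genotype. The nuclear RNA Malat1 took 8.90% and 8.70% of UMIs in WT libraries and 13.7% and 12.2% in KI libraries, and granule neurons of the DG (dentate gyrus) made up 24.3% and 24.3% of WT nuclei and 17.1% and 14.7% of KI nuclei. Their part in the results below was not tested. Any 2 libraries shared 40 to 67 barcodes.

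Summed over all nuclei, every one of the 6 genes was lower in both KI libraries than in both WT libraries, but none passed the test across all genes. Of the 21715 genes tested, 34.3% had both KI libraries below both WT libraries and 0.875% passed an adjusted p of 0.05 (edgeR quasi-likelihood test with Benjamini-Hochberg adjustment). At an unadjusted p under 0.05 there were 5 of the 6 members and 5260 genes in all, and DESeq2 called 5 members and 1861 of 28327 genes. Without KI replicate 2 edgeR also called 5 members, and 7130 of 22242 genes, with the lone KI library assumed to vary like the WT libraries. Egr1 had 671 and 740 UMIs in WT and 305 and 244 in KI libraries, or 9.66, 11.2, 4.52 and 3.34 CPM. The KI libraries lay well apart from the WT libraries, and the log2 fold change of KI over WT was −1.35 ± 0.22 (SE, adjusted p = 0.0564, n = 2 mice per genotype by edgeR). Egr2 was sparse, with 45, 50, 8 and 15 UMIs and a log2 fold change of −2.04 ± 0.38 (adjusted p = 0.0663). Egr3 stood at 8.12, 9.10, 5.06 and 5.59 CPM (−0.64 ± 0.16, adjusted p = 0.101). Egr4 stood at 4.95, 3.67, 1.94 and 1.59 CPM (−1.23 ± 0.25, adjusted p = 0.0767). Both genes had a gap between genotypes wider than the gap between replicates.

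The 2 corepressors gave unlike values. Nab2, the corepressor induced by EGR factors, stood at 8.25 and 7.88 CPM in the WT mice, against 3.95 and 4.42 CPM in the KI mice, a log2 fold change of −0.90 ± 0.16 (adjusted p = 0.0646). Nab1, which is expressed more constantly in many tissues, was measured at 29.0, 27.6, 26.3 and 24.9 CPM, and its log2 fold change was −0.09 ± 0.11 (adjusted p = 0.615). Nab2 overlaps Stat6, Nemp1 and Gm16229 on the opposite strand, and the use of strand in counting is not stated. Stat6 stood at 1.48, 1.81, 1.85 and 2.09 CPM (log2 fold change 0.31, adjusted p = 0.431) and Nemp1 at 13.2, 14.6, 11.8 and 12.6 CPM (−0.13, adjusted p = 0.534). Gm16229 stood at 0.115, 0.151, 0.030 and 0.041 CPM, lower in both KI libraries, with too few counts to be tested. In sums over all nuclei, fewer nuclei of a class and less RNA per nucleus cannot be told apart, and the classes were therefore examined one by one.

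In WT nuclei, the highest Egr1 levels per UMI were those of microglia (25.3 and 32.5 CPM on 8 and 9 UMIs), oligodendrocytes (20.3 and 22.2 CPM) and astrocytes (16.8 and 23.8 CPM). In the WT libraries alone, oligodendrocytes and astrocytes differed from CA1 neurons in Egr1 by 0.20 and 0.12 on the log2 scale and did not pass the test (adjusted p = 0.440 and 0.770). Among neurons the order began with the CA1 and subicular fields. The mean level in CA1 neurons, the main output neurons of the hippocampus, was 14.4 CPM (14.4 in each replicate), and in subicular or cortical excitatory neurons 12.8 and 14.6 CPM. These neighbours in the order overlapped. CA3 pyramidal neurons (5.60 and 9.10 CPM), DG granule neurons (5.93 and 8.39 CPM) and inhibitory neurons (5.59 and 6.30 CPM) formed a lower band with overlapping values. Across both genotypes, Egr1 was higher in CA1 than in DG neurons by 0.64 ± 0.15 on the log2 scale (adjusted p = 0.00331), a comparison in which 53.9% of genes passed. The order of Egr1 was different in KI libraries, where CA1 neurons (3.27 and 2.53 CPM) lay near DG granule neurons (2.89 and 2.46 CPM) and under CA3 neurons (3.73 and 3.88 CPM).

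Among the principal neurons, WT levels of Egr3 overlapped between fields. Egr3 in WT libraries stood at 8.83 and 10.0 CPM in CA1, 9.02 and 7.16 in CA3 and 6.92 and 9.17 in DG neurons. It was lower in inhibitory neurons, at 3.63 and 2.84 CPM in WT, and across genotypes that class lay under CA1 by −1.41 ± 0.24 (adjusted p = 0.000161, with 48.2% of genes called). Nab2 was also lower there, with an inhibitory level of 3.36 and 3.15 CPM in WT against 10.1 and 9.84 in CA1 neurons (−1.54 ± 0.21, adjusted p = 1.68e-05). Oligodendrocytes also lay under CA1 neurons in Nab2 (−1.16 ± 0.27, adjusted p = 0.00132, with 66.4% of genes called). Nab1 was higher in CA3 than in DG neurons by 0.29 ± 0.08 (adjusted p = 0.00517, with 57.3% of genes called) and than in CA1 neurons by 0.18 ± 0.06 (adjusted p = 0.0363, with 36.6%), and lower in astrocytes than in CA1 neurons by −0.52 ± 0.21 (adjusted p = 0.0267, with 53.9%). The last 2 of these calls were lost with library totals, at log2 differences of 0.15 and −0.06 (adjusted p = 0.0811 and 0.843). Of 7 other settings, 3 ended the call of CA3 over CA1 and 4 that of astrocytes, which lay between −0.82 and −0.06. Leaving out WT replicate 2 ended the CA3 calls of Nab1 over DG (adjusted p = 0.0784) and over CA1 neurons (adjusted p = 0.273), the latter also ended without either KI library and in the WT libraries alone (0.09, adjusted p = 0.495), and the astrocyte call ended without WT replicate 1 or KI replicate 1 (adjusted p = 0.204 and 0.188). Averaged over genotypes, Egr3 was lower in CA1 than in DG neurons by −0.45 ± 0.11 (adjusted p = 0.00366), but within WT libraries alone the difference was 0.33 (adjusted p = 0.0789), so that order came from the KI libraries. The 8 pairs of classes gave 9 called class differences of members, where 36.6 to 66.4% of all genes were called per pair. Of these 9, the Egr3 differences of CA1 and of CA3 from DG neurons changed direction in WT alone.

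**Figure D2:**
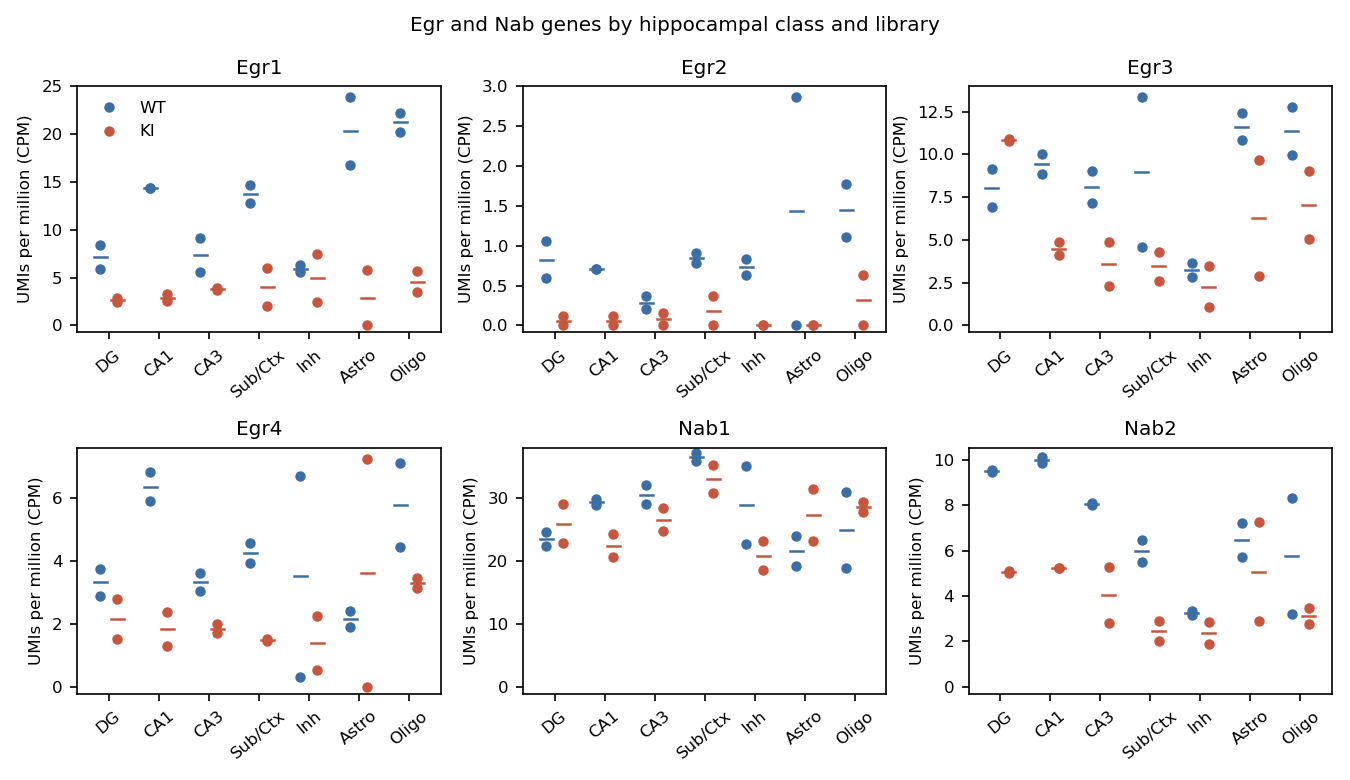
CPM of each gene (1 panel per gene, y axis) in 7 classes (x axis), with 1 point per library and a line at the mean of the 2 libraries of each genotype (WT blue, KI red). In CA1 neurons, the KI points of Egr1 (3.27 and 2.53) lie far under the WT points (14.4 and 14.4), while in DG granule neurons the KI points of Egr3 (10.9 and 10.8) lie above the WT points (6.92 and 9.17).

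The UMIs of these genes were few per nucleus, which limits what single nuclei can show. Among CA1 neurons, Egr1 was detected in 7.91% of WT replicate 1 nuclei (exact 95% interval 6.93 to 8.98) and 9.05% of WT replicate 2 nuclei (7.91 to 10.3). In the KI libraries the shares were 2.40% (1.81 to 3.12) and 1.82% (1.32 to 2.44), under both WT shares, at median depths of 5364 and 6523.5 UMIs in WT and 7559.5 and 6309 UMIs in KI neurons. With nuclei of at least 1000 UMIs thinned to 1000, and shallower nuclei left out, the shares were 1.53, 1.54, 0.361 and 0.308%. The intervals cover counting error only. Nuclei with 3 or more Egr1 UMIs made up 0.180 and 0.214% of WT CA1 neurons, and the highest count in a nucleus was 4. Nab1 was detected in 14.8, 16.98, 16.96 and 12.8% of CA1 neurons, and Egr2 in 0.431, 0.515, 0 and 0.0847%. The 0 of 2252 nuclei for Egr2 in KI replicate 1 allows a share of up to 0.133% (3 counts of the total), which limits nuclei with an Egr2 UMI at this depth and not nuclei that express the gene. Counting all 60 combinations of 6 genes and 10 classes, the share was lower in both KI libraries than in both WT libraries in 29 and higher in 4, where 17% and 19.3% of the combinations of all genes with a UMI were lower and higher. After thinning these counts were 33 and 2, and the shares over all genes 22% and 17.4%.

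Glia also held Egr1 UMIs. In droplet data, free RNA from broken cells can be captured with any nucleus. Oligodendrocytes contained 57, 40, 18 and 5 Egr1 UMIs, or 20.3, 22.2, 5.67 and 3.46 CPM, and the share of nuclei with a UMI was 2.88, 3.52, 0.876 and 0.590%. The WT shares lie within the WT shares of DG granule neurons (2.34 and 3.69%), at a median depth of 1440 UMIs against 4092, so that in WT libraries detection of Egr1 in DG neurons was not above that in oligodendrocytes. In KI libraries the DG shares were 1.37 and 1.12%, above both oligodendrocyte shares at the greater depth of DG neurons. Per nucleus, oligodendrocytes held 32.4 to 35.4% as much Egr1 as CA1 neurons of the same library. For neuronal genes that the class gate did not use, the same ratio was 17.2 to 18.6% for Slc17a7 (the vesicular glutamate transporter), 4.02 to 5.97% for Camk2a (a postsynaptic kinase), 5.53 to 10.97% for Snap25 (a synaptic fusion protein) and 3.40 to 6.32% for Rbfox3 (a neuronal splicing factor). These genes were chosen after the data were seen. The Egr1 ratio was the highest of the 5. Its range over the libraries was narrow, as was that of Slc17a7, but in KI replicate 2 it rests on 5 Egr1 UMIs. How much of the glial signal came from the glia was not tested. The log2 fold change of Egr1 in oligodendrocytes was −2.03 ± 0.35 (adjusted p = 0.0562, where 0.348% of genes were called), close to that in CA1 neurons, and the KI effect did not differ detectably between these 2 classes (difference 0.15 ± 0.39, adjusted p = 0.954, with 0.635% of genes called). Astrocytes held 14, 25, 2 and 0 Egr1 UMIs and microglia 8, 9, 5 and 0, too few for a level in KI mice. By edgeR, Egr1 in astrocytes did not pass the test (−2.85 ± 0.83, adjusted p = 0.0935, where 1.33% of genes were called), and in microglia it was not tested. Oligodendrocyte precursors held 1, 1, 13 and 0 Egr1 UMIs and fibroblasts 0, 0, 6 and 2, so that KI replicate 1 stood apart in both. Of the 60 combinations 58 had at least 1 UMI, the exceptions being Egr2 in microglia and Egr4 in fibroblasts.

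**Figure D3:**
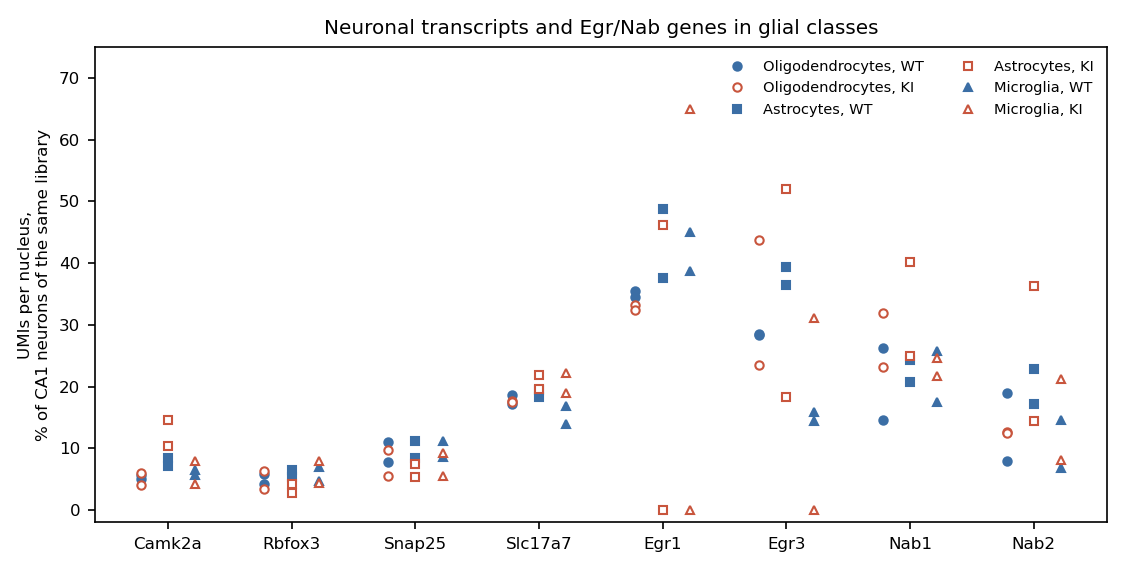
UMIs per nucleus in oligodendrocytes, astrocytes and microglia as a percentage of those in CA1 neurons of the same library (y axis), for 4 neuronal genes and for Egr1, Egr3, Nab1 and Nab2 (x axis), with 1 point per library. In oligodendrocytes Egr1 (32.4 to 35.4%) lies above Camk2a (4.02 to 5.97%), Rbfox3 (3.40 to 6.32%), Snap25 (5.53 to 10.97%) and Slc17a7 (17.2 to 18.6%).

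The next question was which classes carried the lower KI levels. Of the 60 gene-and-class combinations 33 had enough counts to be tested, 3 passed an adjusted p of 0.05 and 17 an unadjusted p of 0.05. Over all genes, between 0% (microglia and subicular neurons) and 9.28% (DG granule neurons) passed the adjusted threshold in these classes. The unadjusted threshold was passed by 4603 of 16114 genes in DG, 4353 of 17313 in CA1 and 3181 of 15445 in CA3 neurons, and by 617 of 6607 in microglia. Among the 33, KI libraries lay below WT libraries in 24, above in 1 and overlapped in 8. Over all genes, the share with KI below WT was between 20.8% (microglia) and 43.3% (DG granule neurons) in the classes tested. The filter on low counts keeps a sparse gene mainly where 1 genotype is high, so these counts describe the tested combinations and not all of them.

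In CA1 neurons all 6 members had both KI libraries below both WT libraries, where 35% of genes did, and 2 of the 6 were called, where 4.11% of genes were. Egr1 had 243 and 244 UMIs in WT and 63 and 43 in KI libraries, and fell by 2.23 ± 0.21 on the log2 scale (adjusted p = 0.0121). That call remained under 9 other settings and on leaving out each library (adjusted p up to 0.0442). Egr3 had 149, 170, 79 and 83 UMIs, or 8.83, 10.0, 4.11 and 4.88 CPM, and fell by 1.01 ± 0.19 (adjusted p = 0.0478). This call was lost without WT replicate 1 (adjusted p = 0.261), without WT replicate 2 (adjusted p = 0.295) and without the filter on low counts (adjusted p = 0.0630). Egr4, whose promoter window holds 2 TGACG cores, stood at 6.81, 5.89, 2.39 and 1.29 CPM (−1.70 ± 0.34, adjusted p = 0.0526). Nab2 stood at 10.1, 9.84, 5.25 and 5.23 CPM, with replicates nearly equal within each genotype (−0.86 ± 0.18, adjusted p = 0.0545). Egr2, whose printed window holds a CArG box, had 12, 12, 0 and 2 UMIs (adjusted p = 0.0752), too few for a fold. Nab1, whose printed window holds EGR sites, stood at 29.7, 28.8, 24.2 and 20.5 CPM and did not pass the test (−0.32 ± 0.15, adjusted p = 0.242).

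**Figure D4:**
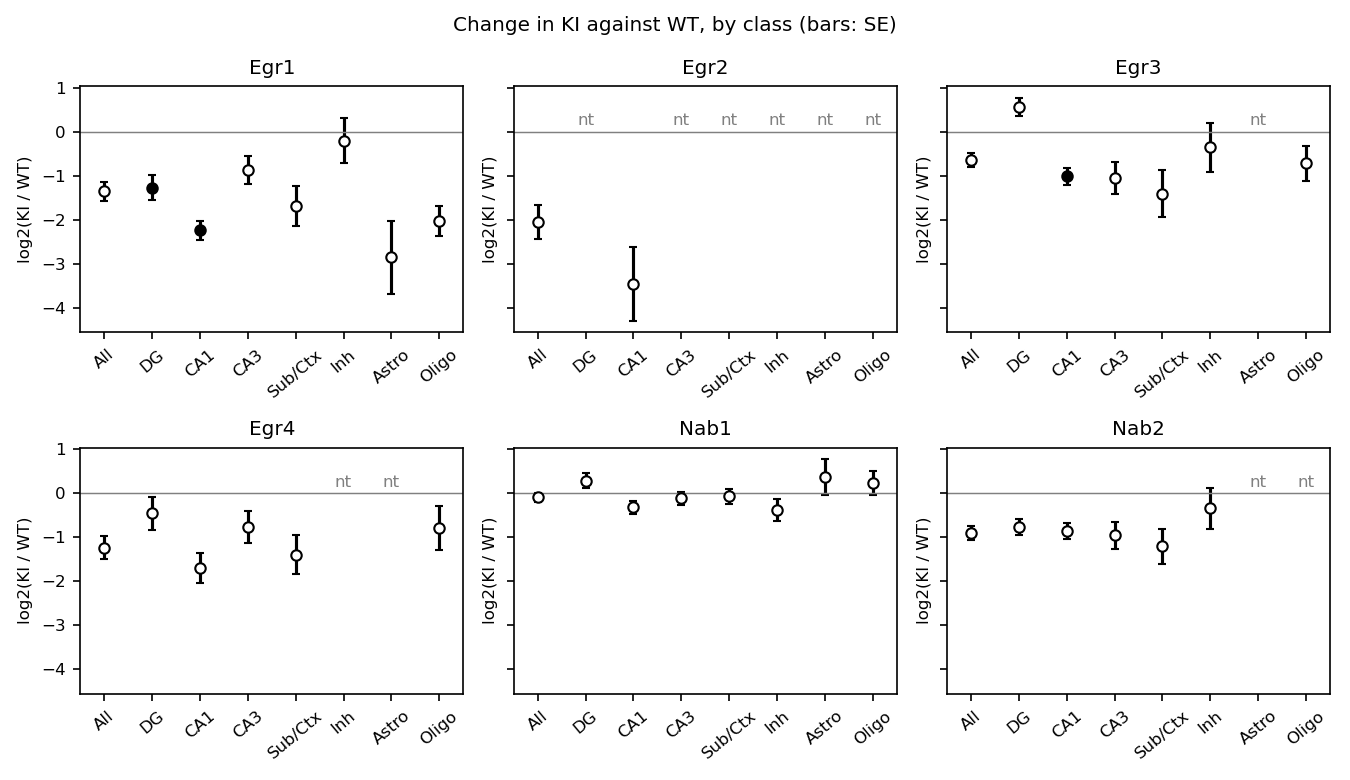
Log2 fold change of KI over WT (y axis, bars ± SE from edgeR, 2 mice per genotype) for each gene in all nuclei and in 7 classes (x axis), with filled points for an adjusted p under 0.05 and "nt" where counts were too low to test. The filled points are Egr1 in CA1 (−2.23) and DG (−1.27) neurons and Egr3 in CA1 neurons (−1.01), and the values of Egr2 rest on few UMIs.

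DG granule neurons, the input neurons of the hippocampal circuit, gave a mixed picture. Egr1 had 90, 119, 29 and 21 UMIs, or 5.93, 8.39, 2.89 and 2.46 CPM, and fell by 1.27 ± 0.29 (adjusted p = 0.0478, where 9.28% of genes were called). The call was lost without WT replicate 1 (adjusted p = 0.126) or WT replicate 2 (adjusted p = 0.385), and under 4 of 9 other settings. Egr3 had 105, 130, 109 and 92 UMIs from fewer KI nuclei, or 6.92, 9.17, 10.9 and 10.8 CPM. It was the only tested combination in which both KI libraries lay above both WT libraries, where 20.3% of DG genes did, and it did not pass the test (0.57 ± 0.21, adjusted p = 0.135). It passed without KI replicate 1 (adjusted p = 0.0411) or KI replicate 2 (adjusted p = 0.00568), each with 1 KI library, where 4085 of 17024 and 7640 of 17158 genes passed. Scaling to library totals in place of TMM moved the median of all DG genes to −0.14, and Egr3 then stood at 0.43 (adjusted p = 0.215). Nab2 stood at 9.56, 9.45, 5.09 and 5.03 CPM, about as far apart between genotypes as in CA1 neurons (−0.77 ± 0.19, adjusted p = 0.0588). Egr4 (3.76, 2.89, 2.79 and 1.52 CPM) and Nab1 (24.6, 22.3, 28.9 and 22.8 CPM) had replicates that nearly met or overlapped between genotypes, at −0.46 ± 0.38 and 0.29 ± 0.18 (adjusted p = 0.462 and 0.325). Egr2 had 9, 15, 0 and 1 UMIs and was not tested.

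When nuclei were clustered by expression, the DG granule neurons of the genotypes fell mostly into different clusters. Cluster 0 held 94.5, 93.6, 7.88 and 26.1% of them and cluster 3 held 3.93, 4.65, 90.7 and 69.4%. Within cluster 0 Egr3 stood at 6.82, 8.62, 9.13 and 7.73 CPM (7 and 17 UMIs in KI), and within cluster 3 at 10.3, 22.03, 11.1 and 11.8 CPM (6 and 14 UMIs in WT). The genotypes overlapped in cluster 0, and in cluster 3 one WT library lay under and one above both KI libraries, so the higher Egr3 of KI libraries was not seen within either cluster. Egr1 stood at 5.48, 7.71, 5.22 and 1.82 CPM in cluster 0 and at 15.5, 14.2, 2.63 and 2.77 CPM in cluster 3, with both KI libraries under both WT libraries in each. The Egr1 values rest on 4 and 4 KI UMIs in cluster 0 and on 9 and 9 WT UMIs in cluster 3. Nab1, which overlapped between genotypes over all DG neurons, stood at 23.7, 21.3, 19.6 and 15.5 CPM in cluster 0 and at 36.1, 31.5, 30.1 and 26.3 CPM in cluster 3, lower in both KI libraries in each. Its values rest on 15 and 34 KI UMIs in cluster 0 and on 21 and 20 WT UMIs in cluster 3. CA1 neurons had no such split in this clustering of all nuclei, where cluster 1 held 75.9, 66.8, 64.8 and 65.6% of them. Within it Egr1 stood at 16.5, 17.5, 2.94 and 3.14 CPM and Egr3 at 10.8, 10.8, 4.33 and 5.19 CPM. When the authors clustered CA1 neurons on their own, they reported subsets that differed in abundance between genotypes. The clusters used here were built from the same counts and were examined by library after the data were seen. The values within them are therefore descriptions with no test.

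CA3, subicular and inhibitory neurons had no call for any member with all 4 libraries, the filter on low counts and no replicate block in edgeR, or by DESeq2. At an unadjusted p under 0.05 there were 3, 4 and 0 members in edgeR, beside 3181 of 15445, 1299 of 14959 and 1896 of 13778 genes. With the replicate block Egr3 and Nab2 in CA3 and Egr1 in subicular neurons passed (adjusted p = 0.0175, 0.0393 and 0.0411), where 1560 of 15445 and 135 of 14959 genes did. Without KI replicate 1, Egr3 passed in CA3 neurons (adjusted p = 0.00397), where 1617 of 15968 genes did. Without KI replicate 2, Egr1 and Nab2 passed in CA3 neurons (adjusted p = 0.0430 and 0.000856), where 4978 of 16079 genes did, and Egr1 in subicular neurons (adjusted p = 0.0144), where 928 of 15397 did. Without the filter Egr1, Egr3 and Nab2 passed in CA3 neurons (adjusted p = 0.0457, 0.00778 and 0.0168), where 1914 of 25014 genes did. Egr1 and Egr3 then also passed in subicular neurons (adjusted p = 0.000529 and 0.0221), where 494 of 24504 genes did. In CA3 neurons, where 2.18% of genes were called, all 5 tested members had KI below WT libraries (33.4% of genes did). Egr1 stood at 5.60, 9.10, 3.73 and 3.88 CPM (−0.86, adjusted p = 0.179), Egr3 at 9.02, 7.16, 4.90 and 2.33 CPM (−1.04, adjusted p = 0.162) and Nab2 at 8.09, 8.01, 2.80 and 5.28 CPM (−0.96, adjusted p = 0.147). The genotypes did not overlap for any of the 3, and the replicates of at least 1 genotype lay far apart. In subicular or cortical neurons, all 5 tested members again had KI below WT, where 26.7% of genes did, and Egr1 stood at 12.8, 14.6, 2.02 and 5.98 CPM (−1.69, adjusted p = 0.557). By edgeR 0 genes were called in that class, in which 1299 had an unadjusted p under 0.05 and DESeq2 called 21. Inhibitory neurons held 20, 20, 28 and 12 Egr1 UMIs, at 5.59, 6.30, 7.49 and 2.45 CPM, with the KI libraries on both sides of the WT libraries (−0.21 ± 0.51, adjusted p = 0.889). In the inhibitory class 0.131% of genes were called. Egr4 in inhibitory neurons depended on WT replicate 1, with 24, 1, 2 and 11 UMIs, and was not tested.

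Whether the KI effect itself differed between classes was tested with each library as a block. Between CA1 and DG neurons 3 of the 6 members passed, where 10.9% of genes did. The log2 fold change of Egr3 was lower in CA1 than in DG neurons by −1.57 ± 0.21 (adjusted p = 0.000546), and this difference remained called on leaving out each library (adjusted p from 9.5e-05 to 0.000738). The KI libraries lay below the WT libraries in CA1 neurons and above them in DG neurons. Egr4 differed by −1.23 ± 0.34 (adjusted p = 0.0399) and Nab1 by −0.60 ± 0.12 (adjusted p = 0.00791), where the KI libraries of Egr4 were the lower in both classes and those of Nab1 overlapped the WT libraries in DG neurons. The Egr4 call was lost without WT replicate 1, WT replicate 2 or KI replicate 1 (adjusted p = 0.124, 0.176 and 0.179) and the Nab1 call without WT replicate 2 (adjusted p = 0.0635). Egr1 gave −0.96 ± 0.31 (adjusted p = 0.0733). Nab2 gave −0.09 ± 0.22 (adjusted p = 0.865), so a difference in its KI effect between CA1 and DG neurons was not detectable. The part that the split of DG neurons between clusters had in these differences was not tested.

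Between CA3 and DG neurons, where 9.78% of genes passed, Egr3 alone of the 5 tested members passed, at −1.63 ± 0.35 (adjusted p = 0.0112). Without WT replicate 1 its adjusted p was 0.161. Inhibitory neurons differed from CA1 neurons in Egr1 by 2.03 ± 0.41 (adjusted p = 0.0249, where 1.49% of genes passed), with a difference of 1.90 (adjusted p = 0.229) without WT replicate 1 and of 1.28 (adjusted p = 0.392) without KI replicate 1. No member passed between CA3 and CA1, where 1.73% of genes did, and the nearest was Egr1 (1.36 ± 0.33, adjusted p = 0.0628).

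**Figure D5:**
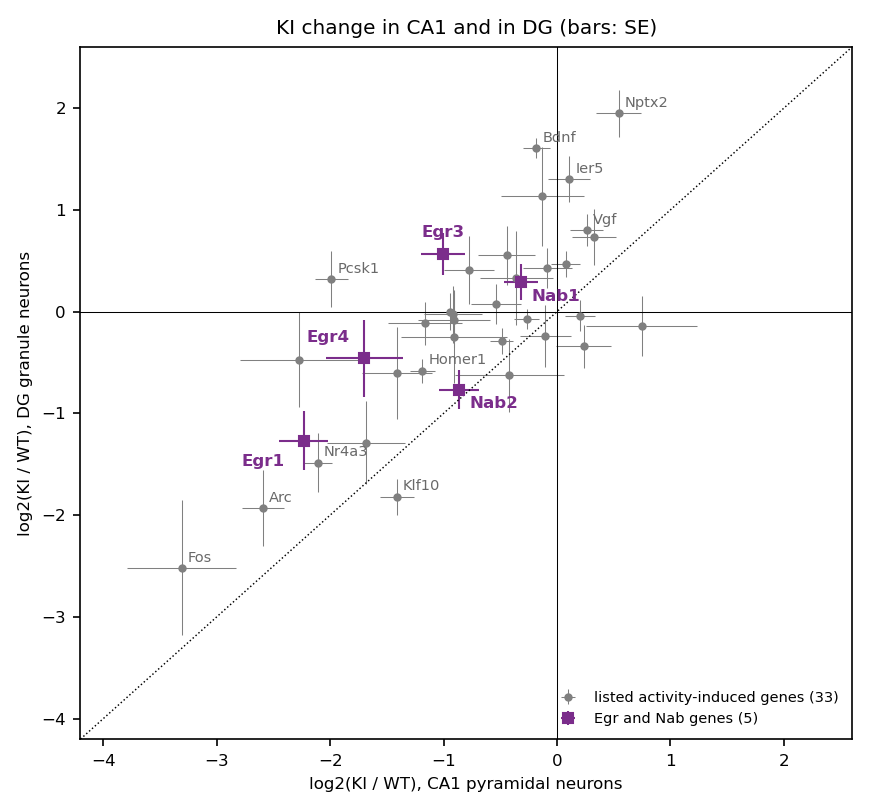
Log2 fold change of KI over WT in CA1 neurons (x axis) against that in DG granule neurons (y axis), with 5 members as purple squares, 33 other activity-induced genes as grey points and equality as a dotted line. Egr3 (−1.01 and 0.57) and Egr1 (−2.23 and −1.27) lie above the line and Nab2 (−0.86 and −0.77) lies close to it.

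Genes of the same pathway were read from 4 lists to place the members. Of 18 other immediate early transcription factors, 16 were tested in CA1 neurons and 4 fell, where 1.48% of all genes were called lower, with a median log2 fold change of −0.93 against 0.01 over all genes. Nr4a3, an orphan nuclear receptor, went from 44.2 and 41.3 CPM to 9.46 and 9.46 (−2.11, adjusted p = 0.00794), and Klf10 fell by 1.41 (adjusted p = 0.0164). In CA3 neurons, where 0.712% of genes were called lower, 4 of 12 fell, among them Nr4a2 (−1.41, adjusted p = 0.0472) and Klf10 (−1.70, adjusted p = 0.0172). In DG neurons 2 of 15 fell and 1 rose, where 4.61% of genes were called lower and 4.67% higher. Klf10 went from 24.8 and 23.6 to 6.79 and 5.62 CPM in DG neurons (adjusted p = 0.0047), and Ier5 went from 8.50 and 9.17 to 23.1 and 16.3 CPM (adjusted p = 0.0219). Ier5, an immediate early response gene, thus moved opposite to Egr1 in the same class.

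Of 18 activity-induced genes that are not transcription factors, 3 fell and none rose in CA1 neurons, where 1.48% of all genes were called lower and 2.62% higher, while in DG neurons 2 fell and 3 rose, beside the 4.61% and 4.67% of genes given above. In CA3 neurons 3 of the 18 fell and none rose, where 0.712% and 1.47% of genes did. Pcsk1, a prohormone convertase, fell by 1.99 in CA1 neurons (adjusted p = 0.00875) and stood in DG neurons at 0.32 (adjusted p = 0.481). Bdnf, the neurotrophin, rose in DG neurons from 59.0 and 56.5 to 154.7 and 165.2 CPM (1.61, adjusted p = 0.00203) and stood at −0.18 in CA1 neurons (adjusted p = 0.380). Vgf, a secreted peptide precursor, rose by 0.80 in DG neurons (adjusted p = 0.0300) and Homer1, a synaptic scaffold, fell by 0.58 there (adjusted p = 0.0333). Outside the rule for named genes, and chosen after their values were seen, Arc, a synaptic protein of the same induction wave, fell in both classes (−2.59 in CA1 and −1.93 in DG, adjusted p = 0.00875 and 0.0300) and Fos fell in CA1 neurons by 3.31 (adjusted p = 0.0310). Of 16 genes of the serum response factor and ERK path, none was called in all nuclei or in any class, where 0 to 9.28% of all genes were, so a count of 0 says little about the path, and the medians in CA1 and DG neurons were 0.03 and −0.07. Of 14 NuRD subunits, which NAB proteins recruit, Mta3 was the only call in any class, 1 of 14 in DG neurons where 9.28% of all genes were called. It went from 92.4 and 97.5 to 55.9 and 64.5 CPM in DG neurons (−0.52, adjusted p = 0.0338).

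Detection of members in the same nuclei was examined in CA1 and DG neurons, as a description. Of 220, 211, 54 and 43 CA1 neurons with an Egr1 UMI, 16, 30, 2 and 1 also had an Egr3 UMI. That was 7.27, 14.2, 3.70 and 2.33%, against 4.96, 6.78, 3.51 and 3.34% of all CA1 neurons. Arc was detected in 15.9 and 25.1% of Egr1-positive WT nuclei, against 8.23 and 10.6% of all WT CA1 neurons. In the KI libraries these shares were 3.70 and 2.33% of Egr1-positive nuclei against 1.91 and 1.99% of the class. The median depth of Egr1-positive nuclei was above that of the class in both WT libraries (6089 against 5364 and 7200 against 6523.5 UMIs) and in KI replicate 1 (8592 against 7559.5), and below it in KI replicate 2 (5697 against 6309). Nab2 was found with Egr1 in 5 and 6.64% of Egr1-positive WT nuclei, close to its share in all WT CA1 neurons (5.68 and 6.65%). In DG neurons 98, 119, 105 and 88 nuclei had an Egr3 UMI, and 10, 9, 5 and 4 of them also had a Nab2 UMI. That was 10.2, 7.56, 4.76 and 4.55% of Egr3-positive nuclei, against 3.88, 4.32, 2.45 and 2.23% of the class. In CA1 neurons the same pair gave 5.797, 12.7, 2.53 and 2.53% of Egr3-positive nuclei, against 5.68, 6.65, 4.35 and 3.68% of the class. These CA1 shares rest on 8, 20, 2 and 2 nuclei and lay clearly above the class in WT replicate 2 alone. Egr3-positive nuclei were deeper than the class in all 4 libraries in both DG (median 4133 against 3761 UMIs in WT replicate 1) and CA1 neurons (8257 against 6523.5 in WT replicate 2).

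The genes with the most similar profile to each member were sought over 40 sums of 10 classes in 4 libraries, which share their libraries and depths, so correlations are descriptions only. Nab1 had the closest profiles, with Wdr48 (Pearson r = 0.93), Emc2 (0.90) and Med27 (0.90). Egr3 was most like Sema7a (0.75), Jkamp (0.73) and Nfyb (0.71), Nab2 most like Tnxb (0.74), Tle1 (0.74) and Kctd6 (0.74), and Egr4 most like Nat14 (0.72), Arhgap39 (0.67) and Kcnrg (0.66). Egr1 had the weakest matches, with Fam107b (0.69), Esf1 (0.64) and Brwd1 (0.64). The members themselves were less alike than these, with r between −0.52 (Nab1 and Nab2) and 0.43 (Egr4 and Nab1). Egr2, at a mean of 0.962 CPM, was too sparse for a profile.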

How the data were processed

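The authors deposited 1 matrix of UMI counts per library (genes by barcodes, with no normalization), made with Cell Ranger 7.0.1 per the file headers on build mm10 per the submitters' processing notes. The annotation, the use of intronic reads and strand, and any ambient RNA correction are not given in the sources used here. No column belonged to another series (0). Of the 32285 gene IDs, 32158 were found in GENCODE M21.

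Nuclei with under 500 genes or at least 5% mitochondrial UMIs (345) and those with a Scrublet doublet score above 0.25 (3279, scanpy 1.11.5) were removed. A nucleus was gated to 1 of 15 classes from 83 markers, none of them a member, when the odds of that class exceeded 20 and at least 2 of its markers were present. Nuclei with 3 or more markers of another lineage were left out (14.9%). Of the gated nuclei, 1463 lay near the cut (odds under 200), and 98.1% of the 33813 that lay in a named cluster had the same name by clustering (leidenalg 0.10.2). Of 9727 CA1 neurons 6875 lay in a named cluster. Clusters were named by the same markers, and those with mixed markers were left unnamed, so the like names are no independent check of the gate. The scoring rule was chosen after the markers, though not the members, had been examined.

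UMIs were summed per library and class and tested with edgeR 4.0.16 in R 4.3.3 (filterByExpr, TMM, glmQLFit and glmQLFTest, two-sided), with Benjamini-Hochberg adjustment over all genes and a threshold of 0.05. Mice, not nuclei, were the replicates, and with 2 against 2 no exact permutation test can go below 33.3%, so no single-value test is given. Class pairs were fitted with the library as a block. DESeq2 1.42.0, library totals, no filter, a stricter gate, cluster classes, at least 1000 genes, no doublet removal, equal depth and leaving out each library were alternatives. Replicate numbers paired no samples (correlation of deviations 0.027). On simulated counts, 72% of genes changed by 2-fold and 98% of those changed by 4-fold were recovered in CA1 neurons, with 11.5% of calls false. The like shares were 79%, 99% and 8.25% in DG granule neurons, 80%, 100% and 16.7% in oligodendrocytes, and 61%, 97% and 4.82% in all nuclei. Changes were simulated only in genes above a minimum expected count per library. Sparse members, such as Egr2 in any class and Egr1 in oligodendrocytes, lie under it, so the recovered shares do not apply to them. Depth gives a floor of 3 counts per library.

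The named genes were the 6 members, up to 3 listed genes per direction and class (adjusted p under 0.05, the largest change, a mean of at least 10 CPM, KI libraries on 1 side of WT libraries), and the 3 genes most like each member with a mean of at least 3 CPM. Members and lists were chosen with earlier results of these data known.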

Additional observations from a re-analysis of the deposited data

Results flagged for a closer look

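The effect of the KI genotype differed between classes, by a test of the difference itself (edgeR, library as a block, adjusted over all genes), for 5 combinations of member and class pair. Egr3, the plasticity-linked member, had a lower log2 fold change in CA1 than in DG neurons by −1.57 ± 0.21 (adjusted p = 0.000546) and in CA3 than in DG neurons by −1.63 ± 0.35 (adjusted p = 0.0112). These share the DG libraries and are not independent of each other. In CA1 and CA3 neurons both KI libraries lay below both WT libraries, and in DG neurons both lay above, though not within either of the DG clusters that hold most WT or most KI nuclei. Egr4 had a lower log2 fold change in CA1 than in DG neurons by −1.23 ± 0.34 (adjusted p = 0.0399) and Nab1 by −0.60 ± 0.12 (adjusted p = 0.00791). For Nab1, neither class alone passed the test, and within each of those DG clusters both KI libraries lay below both WT libraries. The calls of Egr4, of Nab1 and of Egr3 in CA3 over DG neurons were each lost on leaving out some single libraries, as given above. Egr1 had a log2 fold change higher in inhibitory than in CA1 neurons by 2.03 ± 0.41 (adjusted p = 0.0249), on 20, 20, 28 and 12 UMIs in inhibitory neurons. On leaving out 1 library this difference ran from 1.28 (without KI replicate 1, adjusted p = 0.392) to 2.50 (without KI replicate 2), and the call was also lost without WT replicate 1 (adjusted p = 0.229).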

How the results depend on the processing

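Alternatives that leave out a library from the class-pair tests were added after seeing the data. In all nuclei, where edgeR called 0 members, DESeq2 called 5, no filter on low counts 3 and the replicate block 4, and leaving out 1 library called 0 (without WT replicate 2) to 5 (without KI replicate 2). By class the 3 calls became 6 with library totals, 10 without the filter, 8 with the replicate block and 6 with classes from clusters, and 1 (without WT replicate 2) to 14 (without KI replicate 2) on leaving out a library. Without KI replicate 2, 7640 of 17158 genes were called in DG, 6589 of 17951 in CA1 and 4978 of 16079 in CA3 neurons. The 10 without the filter added Nab2 in DG, Egr1, Egr3 and Nab2 in CA3, Egr1 and Egr3 in subicular neurons and Egr1 in astrocytes and oligodendrocytes, and lost Egr3 in CA1 neurons. The 9 class differences became 14 without the filter, 16 with classes from clusters and 13 in the WT libraries alone, and 7 to 16 (without KI replicate 2) on leaving out a library. In the main fits 36.6 to 66.4% of all genes were called per pair of classes, and such shares are not given for the other settings. Egr3 was higher in CA1 than DG neurons by 0.33 and in CA3 than DG neurons by 0.15 in WT libraries alone, the reverse of the average over genotypes. The 5 differences of the KI effect were 4 to 7 elsewhere, and 2 to 6 on leaving out a library (2 without WT replicate 1, 3 without KI replicate 1). The cause was not tested. Where a genotype is left with 1 library, that library is assumed to vary like the others. Over all genes, the calls in all nuclei (190) became 1861 with DESeq2, 696 without the filter, 1486 with the block and 216 to 7130 on leaving out a library; those in CA1 neurons (711) became 1293, 291, 1281 and 49 to 6589; those in DG neurons (1495) became 2211 without the filter and 314 to 7640; and those in CA3 neurons (337) became 1914 without the filter, 1560 with the block and 256 to 4978. Of the calls in DG neurons 50.3% were higher in KI with TMM and 33.3% with library totals, and in CA3 neurons 67.4% and 53.7%. Same-numbered libraries did not deviate together, so the block carries no pairing. Counts of a few UMIs per library limit Egr2 everywhere and all members in OPC, microglia and fibroblasts.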
